A study of Mus musculus with 6 samples.

Results

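Transcripts of 10 S100 and annexin genes were followed in mouse regulatory T (Treg) cells that had been induced in vitro with or without sorafenib (Sora), an inhibitor of several kinases. The genes were taken by symbol as a set that is often named with effector T cells, namely the S100 genes S100a4, S100a6, S100a10, S100a11 and S100a13 and the annexin genes Anxa1, Anxa2, Anxa4, Anxa5 and Anxa6. All 10 were among the 22939 genes of the count table, and all 10 were among the 13463 genes that carried enough counts to be tested. Naive CD4 T cells came from mice of C57BL/6J background that carry a Foxp3-GFP knock-in, and received anti-CD3 and anti-CD28 stimulation with TGF-β1 and antibodies against IFN-γ and IL4, and the GFP+ cells were sorted for RNA-seq. There were 3 control libraries (ctrl-Treg cells) and 3 sorafenib libraries (Sora-Treg cells), and both groups shared the reporter allele, the stimulation and the sort. The labels give neither the dose nor the time of sorafenib for these libraries, nor the age of the mice, and the sort rests on a reporter of Foxp3, so cells with little reporter signal are not represented.

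S100 proteins are small proteins of the EF-hand family. They bind calcium through paired helix-loop-helix motifs, mostly as dimers, and then expose a surface that binds partner proteins. Annexins bind acidic phospholipids of membranes when calcium is present, and their variable amino-terminal tails dock S100 partners. S100a10 is unusual in that it binds Anxa2 without needing calcium, and S100a11 and S100a6 are known to bind annexins as well. In T cells several of these transcripts, among them S100a4, S100a6, S100a10, Anxa1 and Anxa2, are known as features of antigen-experienced effector and memory cells.

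The libraries held 30727686 to 37717324 counts each. Levels are given below as CPM, the counts of a gene relative to the library total after TMM scaling, with the mean ± SD over 3 libraries, and a floor of 3 counts came to 0.0762 to 0.0989 CPM. The labelled cell type was checked with 10 T and Treg cell markers, which were all tested. With sorafenib 9 of them were called higher and 0 lower, where 29.7% and 29.9% of all genes tested were called. The median log2 fold change of the 10 markers was 0.46. Their summed level was 4584 to 4654 CPM in controls and 7755 to 7870 CPM with sorafenib. The inhibitory receptor Ctla4 (1.53), the T cell receptor chains Cd3g (1.26) and Cd3d (0.75) and the interleukin 2 receptor chain Il2ra (0.97) were among them on the log2 scale. The part of this shift in the members' values was not tested. Foxp3, the lineage factor of Treg cells, lay at 252 to 278 CPM, and the coreceptor Cd4 at 678 to 724 CPM in the 6 libraries. On the log2 scale Foxp3 rose by 0.07 (edgeR adjusted p = 0.0405), with overlapping groups, and Cd4 by 0.06 (edgeR adjusted p = 0.0416). In FPKM, which carries no TMM scaling, both means were lower with sorafenib. They went from 68.5 to 66.6 for Foxp3 and from 204 to 196 for Cd4. Markers of other cells were low but present in both groups. The summed level of 10 myeloid markers was 94.9, 94.7 and 25.2 CPM in the 3 control libraries and 23.2, 43.5 and 21.3 CPM in the sorafenib libraries, so that control libraries 1 and 2 stood apart. Summed levels ranged from 10.02 to 11.1 CPM in controls and from 6.18 to 7.81 CPM with sorafenib for B cell markers, from 15.4 to 17.3 and from 16.7 to 18.3 CPM for CD8 and NK cell markers, and from 17.1 to 20.1 and from 70.9 to 75.1 CPM for stromal and endothelial markers. In the last list the gain came from Pecam1 (11.4 to 39.4 CPM) and Epcam (4.203 to 32.1 CPM), whereas the collagen gene Col3a1 was called lower, Col1a1 and Col1a2 did not pass, and the endothelial cadherin Cdh5 had at most 1 count. No list had a gene at 0 in every library. The labels do not say whether libraries of a group came from separate mice or cultures, so p-values measure the spread between these libraries, which may be technical.

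Most of the 10 genes were higher in Sora-Treg cells. With edgeR and an adjusted p under 0.05, 6 members rose (Anxa2, S100a13, S100a10, Anxa4, S100a11 and Anxa6), 1 fell (S100a4) and 3 did not pass (S100a6, Anxa1 and Anxa5). Over all genes tested 29.7% were called higher and 29.9% lower by the same rule, so 59.6% of genes were called in either direction. At the stricter limit of more than 2-fold, Anxa2 was the only member among the higher differentially expressed genes (DEGs), where 6.3% of all genes stood, and S100a4 the only member among the lower ones, where 4.97% stood. The median log2 fold change of the 10 members was 0.35, and that of all genes tested was -0.0035. In 8 members the control and sorafenib libraries did not overlap, 7 with sorafenib higher and 1 with it lower. Over all genes tested this held for 63.7%, with sorafenib higher in 31.8% and lower in 32%. These counts rest on TMM-scaled CPM. With levels relative to library totals alone, the groups of S100a6 overlapped. In bulk samples, fewer cells of a type and less RNA per cell cannot be told apart.

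**Figure D1:**
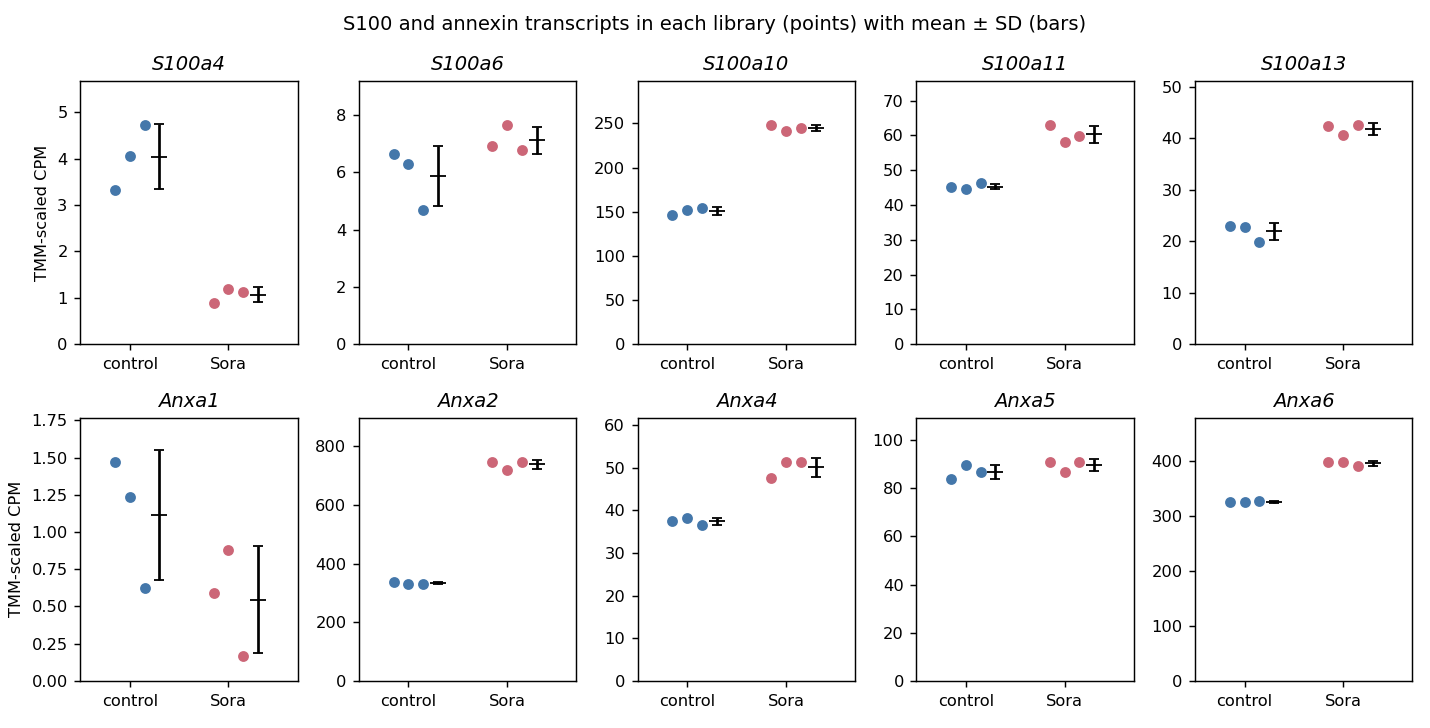
Level of each of the 10 S100 and annexin genes in each library, as TMM-scaled CPM on a linear axis that starts at 0 and is set for each gene, with 3 control and 3 sorafenib libraries as points and the mean ± SD of each group. The groups lie apart in 8 genes, with sorafenib lower in S100a4 and higher in the other 7, and they overlap in Anxa1 and Anxa5.

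Anxa2 rose the most among the members. It encodes the annexin that carries S100a10 to the plasma membrane, where the complex takes part in plasminogen activation and membrane traffic. It read 337, 330 and 330 CPM in ctrl-Treg cells and 747, 719 and 747 CPM in Sora-Treg cells. The libraries of a group were close to each other and the groups lay far apart. The means were 332 ± 3.84 and 737 ± 16.3 CPM, a 2.22-fold rise with a log2 fold change of 1.15 ± 0.03 (SE, n = 3 per group, edgeR adjusted p = 3.37e-20).

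S100a10, the partner of Anxa2, rose by less. It measured 146, 152 and 155 CPM in controls and 248, 241 and 244 CPM with sorafenib, with no overlap between the groups. The mean went from 151 ± 4.21 to 245 ± 3.56 CPM, which was 1.62-fold higher (log2 fold change 0.70 ± 0.03, edgeR adjusted p = 7.85e-15). Because the partners rose by unequal amounts, their balance within a library shifted. The ratio of S100a10 to Anxa2 was taken from FPKM values, which are fragments relative to a fixed length per gene and the library total. It was 1.203, 1.28 and 1.29 in the control libraries and 0.921, 0.929 and 0.906 in the sorafenib libraries. S100a10 was thus above Anxa2 in every control library and below it in every sorafenib library. That crossing rests on the lengths the FPKM values imply, 650 bases for S100a10 and 1799 for Anxa2. The change of the ratio between groups does not depend on them. The mean ratio was 1.26 ± 0.0487 and 0.918 ± 0.0119, a log2 change of -0.45 that library scaling cannot alter, since both genes share each library's factor. The ratios of the other known pairs overlapped between the groups. For S100a11 and Anxa1 it was 84.6 to 204 in controls and 183 to 982 with sorafenib, and for S100a6 and Anxa11 it was 0.253 to 0.365 and 0.251 to 0.302.

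**Figure D2:**
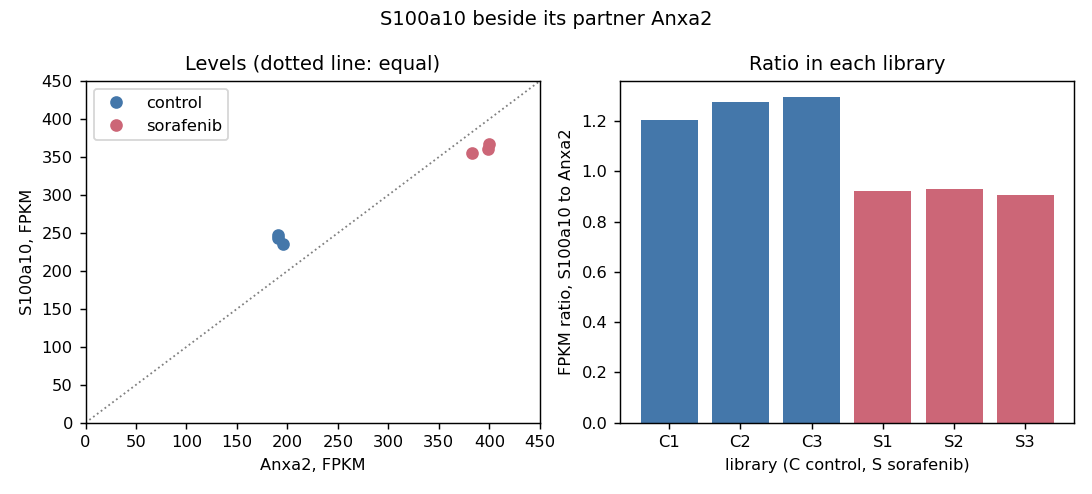
S100a10 against Anxa2 levels per length (FPKM, points are libraries, dotted line at equal levels) and their ratio in each of the 6 libraries (bars). The ratio lies between 1.203 and 1.29 in the 3 control libraries and between 0.906 and 0.929 in the 3 sorafenib libraries.

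The other members that rose did so by smaller factors. S100a13, which is known for the release of growth factors that lack a signal peptide, read 22.9, 22.8 and 19.9 CPM in controls and 42.5, 40.6 and 42.6 CPM with sorafenib. Its groups were far apart, and the rise was 1.91-fold (log2 fold change 0.93 ± 0.06, edgeR adjusted p = 8.86e-12), just short of the 2-fold limit. Anxa4, an annexin abundant in secretory epithelia, moved from 37.6, 38.1 and 36.5 CPM to 47.5, 51.4 and 51.4 CPM. All 3 sorafenib libraries were above all 3 controls, with a 1.34-fold rise (0.42 ± 0.05 on the log2 scale, edgeR adjusted p = 1.41e-07). S100a11, which binds the tail of Anxa1, moved by a similar factor, from 45.0, 44.6 and 46.2 CPM to 63.0, 58.0 and 59.8 CPM. The groups were again apart, by 1.33-fold (0.41 ± 0.05 on the log2 scale, edgeR adjusted p = 5.60e-08).

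Anxa6, a large annexin with duplicated core repeats, had the smallest rise that passed. Its levels were tight, at 326, 325 and 328 CPM in controls and 398, 400 and 391 CPM with sorafenib, with a coefficient of variation of 0.386% and 1.15%. The difference was 1.21-fold, with a log2 fold change of 0.28 ± 0.03 (edgeR adjusted p = 3.07e-09). It fell to 0.17 when libraries were scaled by their totals alone, still with an adjusted p under the threshold. Anxa5, the phosphatidylserine-binding annexin that is used as a stain for apoptotic cells, did not pass the test. It measured 83.9, 89.5 and 86.7 CPM in controls and 90.9, 87.0 and 91.1 CPM with sorafenib, and the groups overlapped. Its log2 fold change was 0.05 ± 0.04 (edgeR adjusted p = 0.298), and the sign turned with the scaling, to -0.0668 with library totals alone.

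S100a4 was the only member that fell. It encodes a protein of motile cells that binds non-muscle myosin, and it is a familiar transcript of effector memory T cells. It was scarce here, at 3.33, 4.07 and 4.73 CPM in ctrl-Treg cells and 0.890, 1.19 and 1.12 CPM in Sora-Treg cells. The lowest control was well above the highest sorafenib library. These levels rest on 430 counts in the control group and 105 counts in the sorafenib group. The mean fell from 4.04 ± 0.701 to 1.07 ± 0.159 CPM, which was 3.75-fold lower (log2 fold change -1.91 ± 0.22, edgeR adjusted p = 1.33e-07), and the log2 fold change stayed between -2.14 and -1.56 in the 18 alternatives that were run.

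S100a6, a neighbour of S100a4 on the chromosome and a calcium-dependent partner of the annexins, did not follow it. Its levels were 6.65, 6.29 and 4.70 CPM in controls and 6.92, 7.65 and 6.77 CPM with sorafenib. On this scale the groups did not overlap, but the highest control and the lowest sorafenib library were close together. In FPKM, which carries no TMM scaling, they overlapped. Control library 1 (9.66 FPKM) then lay above sorafenib libraries 1 (9.26) and 3 (9.04). The log2 fold change was 0.27 ± 0.13 (edgeR adjusted p = 0.0883), from 150 to 262 counts per library. Without control library 3, the lowest, it dropped to 0.13 (adjusted p = 0.406), and without control library 1 it was 0.37 (adjusted p = 0.0435).

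Anxa1, which is known for restraining inflammation through formyl peptide receptors and for curbing phospholipase A2, was the scarcest member. It had 58, 45 and 20 counts in the control libraries and 18, 28 and 6 counts in the sorafenib libraries, or 1.47, 1.24 and 0.626 CPM against 0.593, 0.878 and 0.169 CPM. The groups overlapped, since sorafenib library 2 was above control library 3. The log2 fold change of -1.05 ± 0.45 just missed the threshold (edgeR adjusted p = 0.0505), and the adjusted p ranged from 0.0108 to 0.857 over 17 alternatives. Single libraries decided its size. It was -1.58 (adjusted p = 0.0108) without sorafenib library 2, -0.60 (adjusted p = 0.249) without sorafenib library 3 and -1.33 (adjusted p = 0.0207) without control library 3.

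The myeloid markers moved with Anxa1 across the controls, and Anxa1 is also a well known transcript of myeloid cells. Of 7 myeloid markers tested, 6 were at least 2-fold higher in control libraries 1 and 2 than in control library 3, and Anxa1 had the same order. Lyz2, a lysozyme of macrophages and neutrophils, read 47.5, 47.9 and 12.6 CPM in controls and 5.64, 21.2 and 4.66 CPM with sorafenib, with its highest sorafenib value in library 2, as for Anxa1. Of these 7 markers 6 were called lower with sorafenib and 0 higher, although the groups overlapped in all 7. Leaving out control libraries 1 and 2, an alternative chosen after seeing the data, leaves control library 3 as the only control, which is assumed to vary like the other libraries. Since Anxa1 and S100a6 were lowest and S100a4 highest among the controls in that library, the direction of each shift was set by the choice. The log2 fold changes were then -0.21 for Anxa1, 0.60 for S100a6 and -2.14 for S100a4. The neutrophil genes S100a8 and S100a9 had at most 3 counts and 1 count in any library. The part of myeloid RNA in the values of Anxa1, S100a6 and S100a4 was not tested.

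**Figure D3:**
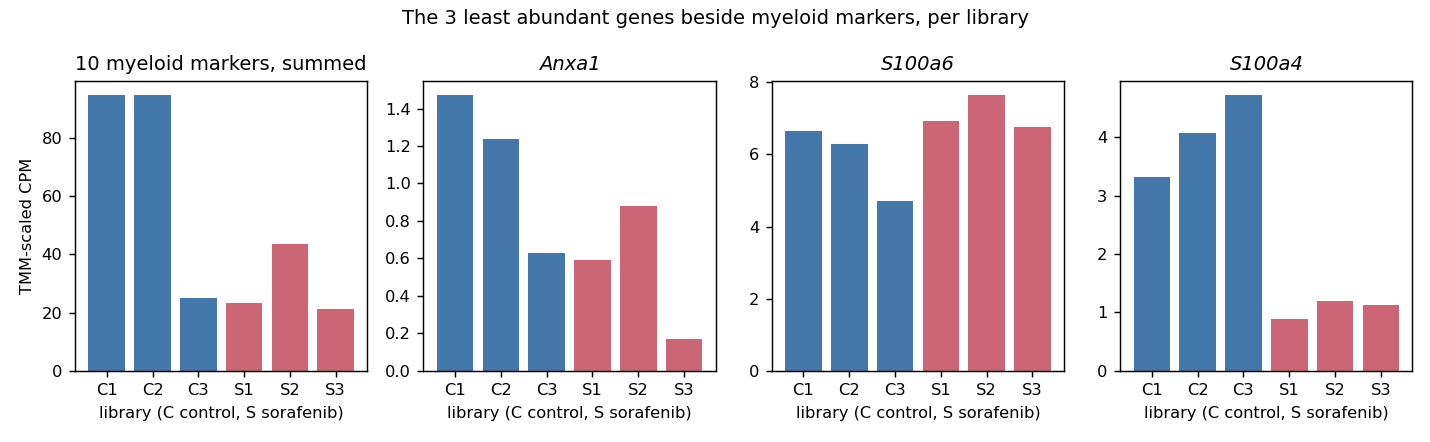
Summed level of the myeloid markers in each library beside the levels of the 3 least abundant members, Anxa1, S100a4 and S100a6, in CPM. The summed myeloid level is 94.9 and 94.7 CPM in control libraries 1 and 2 and 21.3 to 43.5 CPM in the other 4 libraries. Anxa1 is highest in the same 2 control libraries, and S100a4 is highest in control library 3.

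Levels of different genes were compared per length, on the FPKM scale. The order thus rests on the length that the FPKM values imply for each gene. In ctrl-Treg cells S100a10 was the most abundant at 242 ± 6.12 FPKM, followed by Anxa2 at 192 ± 2.82, Anxa6 at 127 ± 0.643 and S100a11 at 93.5 ± 1.77 FPKM. Anxa5 followed at 52.3 ± 1.53 FPKM, S100a13 at 24.8 ± 1.94 and Anxa4 at 14.3 ± 0.301 FPKM. At the low end were S100a6 at 8.51 ± 1.52 and S100a4 at 7.04 ± 1.21 FPKM, whose libraries overlapped, and Anxa1 at 0.829 ± 0.327 FPKM. Of the 5 members named above as features of effector and memory T cells, S100a10 and Anxa2 were thus the most abundant of the 10 genes, and S100a6, S100a4 and Anxa1 the scarcest. In Sora-Treg cells Anxa2 came first at 394 ± 9.17 FPKM and S100a10 second at 362 ± 5.89 FPKM, and no neighbours in the order overlapped. S100a6 was at 9.50 ± 0.621 FPKM while S100a4 was at 1.72 ± 0.252 FPKM, so that this pair, which overlapped in controls, was separate with sorafenib.

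The sums over members followed the abundant genes. The 5 S100 members together made up 224 to 230 CPM in the control libraries and 349 to 362 CPM in the sorafenib libraries. The 5 annexins made up 782 to 786 CPM and 1258 to 1284 CPM. Most of the annexin gain was Anxa2, which went up by 405 CPM, with Anxa6 next at 70.2 CPM. In the S100 sum the gain was 93.6 CPM for S100a10, 19.98 CPM for S100a13 and 14.97 CPM for S100a11, while S100a4 dropped by 2.97 CPM. The coefficient of variation over the control libraries ran from 0.386% for Anxa6 to 39.3% for Anxa1, and the 3 scarcest members had the highest values, with 17.3% for S100a4 and 17.7% for S100a6.

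Other S100 and annexin genes were read as a list beside the members. Of 12 listed S100 genes 10 were in the table and 2 were tested, and the 8 that were not tested had at most 9 counts in a library. S100a2, which is not on that list and was chosen after its values were seen, had at most 2 counts and was not tested. S100a1, known from muscle, where it binds the calcium release channel, showed a larger change than any member. It read 2.64, 2.78 and 3.44 CPM in controls and 15.4, 14.99 and 15.5 CPM with sorafenib, with the groups far apart. The rise was 5.20-fold (log2 fold change 2.38 ± 0.12, edgeR adjusted p = 3.09e-14). S100a3, a gene of hair follicles, had 10 to 19 counts per library and a log2 fold change of -0.53 ± 0.43 (edgeR adjusted p = 0.299). Of the other annexins 5 of 7 were in the table, and the 4 that were tested all rose. Anxa9 went from 5.72 ± 0.304 to 10.2 ± 1.24 CPM (0.83 ± 0.12, adjusted p = 1.52e-06) and Anxa11, a partner of S100a6, from 65.5 ± 3.79 to 91.6 ± 3.92 CPM (0.48 ± 0.05, adjusted p = 3.57e-09), on the log2 scale with edgeR. Anxa3 and Anxa7 rose by 0.36 ± 0.07 (adjusted p = 2.09e-04) and 0.26 ± 0.04 (adjusted p = 2.34e-06). Anxa8 had at most 1 count.

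**Figure D4:**
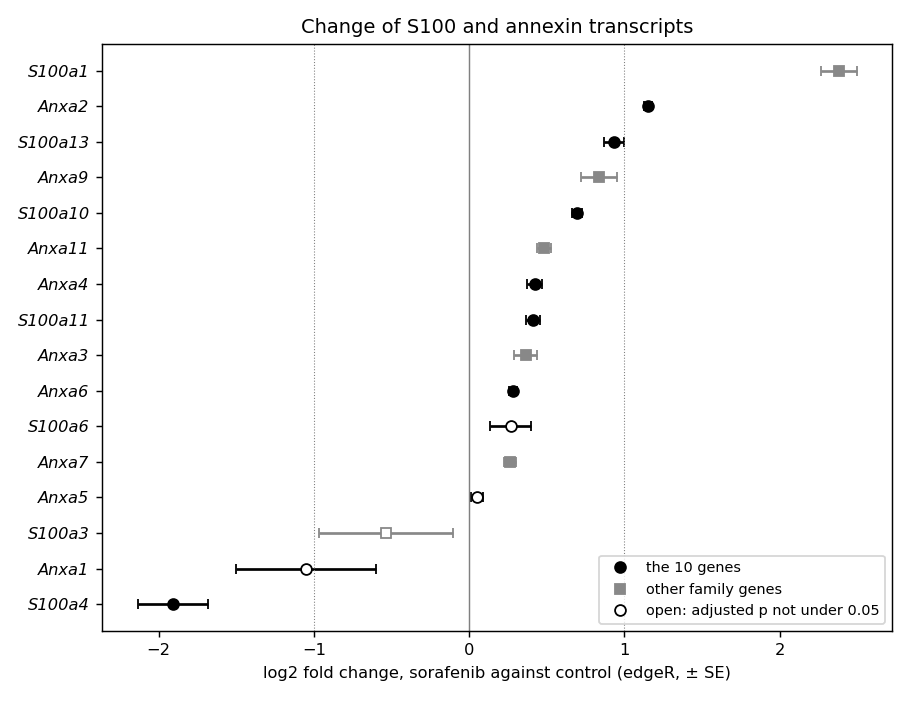
Log2 fold change (sorafenib against control, ± SE, edgeR) of every S100 and annexin gene that was tested, with members as black circles, other family genes as grey squares, open symbols where the adjusted p was not under 0.05, and dotted lines at a log2 fold change of 1 and -1. S100a1 (2.38) and Anxa2 (1.15) lie at the upper end and S100a4 (-1.91) at the lower end.

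The S100 genes differ in direction although most of them are neighbours. On mouse chromosome 3, 12 S100 genes from S100a1 to S100a9 lie within 184.688 kb, and S100a11 and S100a10 lie 28.828 kb apart further along, with 2413 kb between S100a7l2 and S100a11. Of the 15 S100 genes on this chromosome 7 were tested. At one end, S100a1 and S100a13, neighbours on opposite strands, both rose. S100a4 and S100a6 have 6.848 kb between them, and S100a4 fell while S100a6 stayed under the threshold with a positive value. The annexin members are spread over chromosomes 3 (Anxa5), 6 (Anxa4), 9 (Anxa2), 11 (Anxa6) and 19 (Anxa1). The RefSeq spans of S100a1 and S100a13 share 98 bases, and no exons of theirs overlap in the GENCODE annotation. Exons of S100a4, with an implied length of 597 bases, overlap those of the unnamed gene model Gm42674 over 302 bases on the same strand. On the opposite strand, Anxa2 shares 98 exon bases with Gm16144 and Anxa4 shares 75 with Gm44036. None of these gene models is a row of the count table. The strand setting of the counting is not given in the sources used here, so reads of overlapping genes could not be assigned with certainty.

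**Figure D5:**
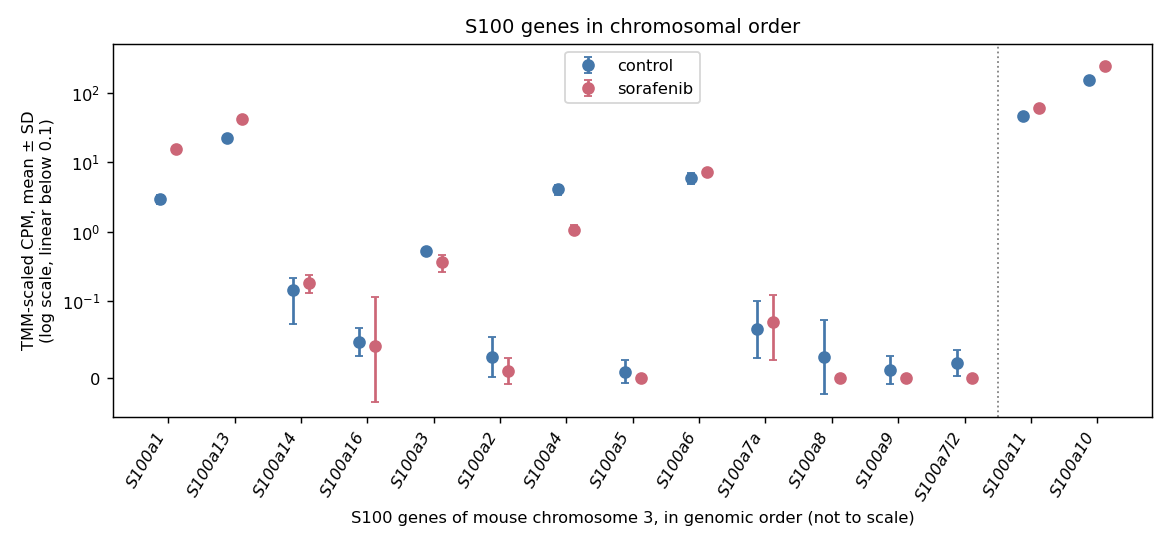
Level of the 15 S100 genes in their order along mouse chromosome 3 (not to scale), as mean ± SD of TMM-scaled CPM over 3 control and 3 sorafenib libraries, on an axis that is logarithmic above 0.1 and linear below. The dotted line marks the gap before S100a11 and S100a10. Sorafenib is higher at S100a1 (15.3 against 2.95 CPM) and S100a13 (41.9 against 21.9 CPM), lower at S100a4 (1.07 against 4.04 CPM), and 8 genes lie near 0.

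The sequences upstream of 4 members are shown because they cover the range of responses. They run from the highest rise (Anxa2) through smaller ones (S100a13 and S100a11) to the fall (S100a4). Each is the 250 bases before a transcript start in RefSeq (GRCm38.p6), written 5′ to 3′ on the strand of the gene. For S100a13 that start lies within the annotated gene span, so that 202 of its 250 bases are inside the gene, and for the other 3 none are. Capitals mark matches to 4 motifs searched on both strands, which are the AP-1 letters TGANTCA, the FOXO letters GTAAACA, the KLF letters CACCC and the SMAD letters CAGAC.
Anxa2, chr9:69453433-69453682, plus strand: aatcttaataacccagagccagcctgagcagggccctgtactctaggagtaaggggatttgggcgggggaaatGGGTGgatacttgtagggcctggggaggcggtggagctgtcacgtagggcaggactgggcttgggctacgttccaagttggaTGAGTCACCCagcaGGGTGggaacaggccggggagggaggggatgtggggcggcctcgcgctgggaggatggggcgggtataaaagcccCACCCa
S100a13, chr3:90514185-90514434, plus strand: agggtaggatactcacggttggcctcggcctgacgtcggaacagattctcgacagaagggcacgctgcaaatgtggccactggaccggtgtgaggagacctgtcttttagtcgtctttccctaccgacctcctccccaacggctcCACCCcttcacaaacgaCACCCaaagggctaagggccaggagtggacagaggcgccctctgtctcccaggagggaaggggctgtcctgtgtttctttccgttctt
S100a11, chr3:93520246-93520495, plus strand: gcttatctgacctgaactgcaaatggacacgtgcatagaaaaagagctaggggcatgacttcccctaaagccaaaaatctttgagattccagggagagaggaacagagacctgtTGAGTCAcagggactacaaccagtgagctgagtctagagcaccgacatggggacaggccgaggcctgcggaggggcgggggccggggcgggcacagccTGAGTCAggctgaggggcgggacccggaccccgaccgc
S100a4, chr3:90603520-90603769, plus strand: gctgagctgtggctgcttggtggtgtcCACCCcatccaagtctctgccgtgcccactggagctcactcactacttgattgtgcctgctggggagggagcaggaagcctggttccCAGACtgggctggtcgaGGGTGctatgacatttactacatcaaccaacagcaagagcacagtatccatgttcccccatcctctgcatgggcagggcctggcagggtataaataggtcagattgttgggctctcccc

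AP-1 is the dimer of Fos and Jun proteins that T cell receptor signals activate, and FOXO, KLF and SMAD factors act in T cell quiescence, migration and the TGF-β response. The table held 9 promoters for 8 of the 10 members. The AP-1 letters were found in 2 of these 9, in Anxa2 with 1 match and in S100a11 with 2 matches, and in 6.75% of all 32851 promoters. Both are among the sequences shown, so the display over-represents these letters. In Anxa2 this match runs into a KLF match, and the shared run is TGAGTCACCC. The KLF letters, which are short, were in 6 of 9 member promoters and in 52.0% of all promoters, with 4 matches in Anxa2 and 2 each in S100a13 and S100a4. The SMAD letters were in 4 of 9 and in 42.2% of all, and S100a4 has 1 match. The FOXO letters were in 0 of 9 and in 3.17% of all promoters. A match of letters is a description and no evidence of a bound factor.

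Known partners and receptors of these proteins did not move as a group. Of 12 tested, 3 rose (25%), 3 fell (25%) and 6 did not pass, with a median log2 fold change of 0.0061. Over all genes tested 29.7% rose and 29.9% fell. The number of partners and receptors that fell was between 3 and 6 over the alternatives. Dysf, the membrane repair protein dysferlin that works with Anxa1 and Anxa2, had 8, 11 and 7 counts in controls and 414, 429 and 539 counts with sorafenib. It was near the floor in every control library and far above it in every sorafenib library, at 0.242 ± 0.0532 and 14.1 ± 0.924 CPM (log2 fold change 5.85 ± 0.18, edgeR adjusted p = 8.50e-18). Pla2g4a, the cytosolic phospholipase A2, went the other way, with 40, 28 and 38 counts in controls and 1, 2 and 7 counts with sorafenib. Its log2 fold change of -3.24 ± 0.53 (edgeR adjusted p = 1.46e-05) is imprecise, as the sorafenib group held 10 counts in all. Ahnak, the giant scaffold that binds the complex of S100a10 and Anxa2, rose by 0.25 ± 0.03 on the log2 scale (adjusted p = 1.82e-07). Myh9, the heavy chain of the non-muscle myosin that S100a4 binds, changed by -0.20 ± 0.02 (adjusted p = 8.89e-08). Cacybp, a binding partner of S100a6, was chosen after its values were seen and went from 74.5 ± 2.49 to 51.3 ± 0.586 CPM (-0.54 ± 0.04 on the log2 scale, edgeR adjusted p = 1.76e-10). The formyl peptide receptors of Anxa1 were too scarce to test, with 64 counts in controls and 5 with sorafenib for Fpr1 and 35 and 6 for Fpr2. Fpr1 had 37, 21 and 6 counts in the control libraries, again highest where the myeloid markers were high.

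Other EF-hand genes were read to see how the wider family of calcium binders behaved. Of 23 tested, 10 rose (43.5%), 4 fell (17.4%) and 9 did not pass, with a median log2 fold change of 0.12. Over all genes tested 29.7% rose and 29.9% fell, so that 59.6% were called in either direction. With library totals alone 6 of the 23 EF-hand genes rose and 7 fell. The actin bundler Lcp1 rose by 0.34 ± 0.02 on the log2 scale (edgeR adjusted p = 1.91e-11).

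Most companion genes of effector and memory T cells rose, as did most members, and some fell. Of the members named above as features of such cells, S100a10 and Anxa2 rose, S100a4 fell, and S100a6 and Anxa1 did not pass. Of 18 companion genes tested, 14 rose (77.8%), 2 fell (11.1%) and 2 did not pass, and the median log2 fold change was 0.60. Over all genes tested 29.7% rose and 29.9% fell. Ahnak is counted here and among the partners above. Lgals1 and Lgals3, galectins that bind glycans on T cells, rose from 155 ± 1.72 to 311 ± 9.49 CPM (1.01 ± 0.03 on the log2 scale, adjusted p = 5.99e-18) and from 15.8 ± 1.45 to 87.8 ± 4.03 CPM (2.47 ± 0.06, adjusted p = 6.16e-20). The intermediate filament gene Vim rose by 0.74 ± 0.02 (adjusted p = 7.73e-19). The chemokine receptors Ccr2 and Cxcr3 went opposite ways, with 2.51 ± 0.16 for Ccr2 (adjusted p = 4.93e-12) and -1.36 ± 0.14 for Cxcr3 (adjusted p = 9.54e-09). Klrg1, an inhibitory receptor of terminal effectors, had 1.05 ± 0.38 (adjusted p = 0.0220), a call that was lost without control library 1, without control library 3 (0.81) or without sorafenib library 3. Of 12 naive T cell genes 6 rose and 6 fell, with a median log2 fold change of 0.0074. Il7r, the interleukin receptor of resting T cells, rose by 1.30, the chromatin organizer Satb1 by 1.23 and the lymph node homing receptor Ccr7 by 0.70, whereas Tcf7, the factor of naive and memory T cells, changed by -1.24 and Dapl1 by -1.94. Actn1, an actin crosslinker, changed by -1.05 and Igfbp4, a binder of insulin-like growth factors, rose by 0.36.

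The genes most like the extreme members were sought among 8764 tested genes with a mean of at least 10 CPM, by Pearson's r of log2 CPM over the 6 libraries. For Anxa2 these were Pgk1, a glycolytic enzyme, at r = 0.9998, then Cndp2 and Ntrk3, with log2 fold changes of 0.85, 1.04 and 3.38. For S100a4 they were Ago3, Top1mt and Prkd3, with log2 fold changes of -0.23, -0.68 and -0.24, all smaller in size than that of S100a4. With only 2 groups of libraries such values are easily reached, as 1763 genes had r above 0.95 with Anxa2 and 1397 with S100a4, so these are descriptions that share the same 6 libraries and their depth.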

How the data were processed

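RNA was sequenced from 6 libraries of GFP+ Treg cells, 3 control and 3 sorafenib, grouped by the labels. The deposited count table holds raw reads per gene from the authors, without normalization. The FPKM table deposited by the authors holds the same libraries relative to a fixed length per gene and the library total. The submitters' processing notes name fastp, HISAT2, HTSeq, R 3.2.0, DESeq2 and GRCm39, whereas the methods of the study name Bowtie2 and GRCm38, so the build of the files is uncertain. Annotation release and strand setting are not given in the sources used here. The files carry no coordinates, and positions and promoters are those of RefSeq and GENCODE for GRCm38.p6.

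Counts were fitted with edgeR 4.0.16 in R 4.3.3 (filterByExpr, TMM scaling, quasi-likelihood F test) on all 13463 genes that passed the filter, and p-values were adjusted by Benjamini-Hochberg over all of them. DEGs had an adjusted p under 0.05 and a change of more than 2-fold. SEs were derived from the log2 fold change and the F statistic. An exact permutation test of 3 against 3 libraries cannot go below p = 0.1 and was not used. Alternatives were other scalings and filters, DESeq2 1.42.0, robust fitting, a replicate block, each library left out, and limma 3.58.1 on log2(FPKM + 1) and log2(FPKM + 0.1). Scripts were tested on simulated data. A floor of 3 counts was chosen for every library, and it covers counting error only. Its value in CPM depends on library depth, which was 30727686 to 37717324 counts.

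Members and lists were chosen with earlier results of these data known. Named genes were all members and, of other lists, genes past 2-fold plus the most abundant (4 for annexins, 2 otherwise). S100a2 and Cacybp are marked as exceptions. Anxa8, Fpr1, Fpr2, S100a8 and S100a9, which were too scarce to test, and cell type markers such as Cd3d were named outside this rule. One gene that this rule names is not reported here. The labels do not say whether the replicate numbers pair the samples, and the main fit did not pair them. Deviations of same-numbered libraries correlated at -0.0438, 0.0591 and 0.0299, which with 3 libraries per group cannot decide it.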

Additional observations from a re-analysis of the deposited data

How the results depend on the processing

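Of 179 refits of the 10 members, 165 kept the direction and the side of the threshold, and 7 members kept both under every alternative they were fitted in. Anxa1 passed the threshold with upper quartile scaling (-1.09), library totals alone (-1.17), a filter of 1 count in any library (-1.06), robust fitting (-1.05), the replicate block (-1.11) and limma on log2(FPKM + 1) (-0.41). In each of these, and without control replicate 3 or sorafenib replicate 2, 2 members were called lower in place of 1. Leaving out single libraries moved Anxa1 between -1.58 and -0.60 and S100a6 between 0.13 and 0.37. The members called higher were 6 or 7 under every alternative. Under a filter of 1 CPM in 3 libraries Anxa1 was not tested. Anxa5 reversed with library totals alone (-0.0668) and with limma on FPKM (-0.0657 with a pseudocount of 1, with or without the filter, and -0.0669 with 0.1). Without control replicates 1 and 2, an alternative chosen after seeing the data, S100a6 was at 0.60 against the 1 control left, its lowest, so that this fit is no sign of a change. The cause of these shifts was not tested. The S100a10 to Anxa2 ratio had the same log2 change, -0.45, from scaled CPM.

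Library totals alone moved the median of all genes by -0.12 and the share of higher genes among those called from 49.8% to 33.8%, and Anxa6 to 0.17. limma on log2(FPKM + 1) called 2456 genes higher and 5037 lower. It called 275 and 189 DEGs, against 848 and 669 with edgeR, 421 and 423 with a pseudocount of 0.1, and 274 and 185 unfiltered. The replicate block called 4057 genes higher and 4064 lower. Deviations of same-numbered libraries correlated at -0.0438 to 0.0591, and 1 of 3 controls correlated best with its own number. With 3 libraries per group this cannot decide whether the numbers pair the samples. Of 478 refits of other named genes, 14 lost the call, 1 gained it and 0 reversed.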
